A study of Mus musculus with 2 samples.

Results

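The genes described here are 10 regulators of the actin cytoskeleton known chiefly from cells of the blood lineage, in white matter of CD47-deficient (CD47 KO) and wild-type (WT) mice. They were chosen by name (Coro1a, Rac2, Vav1, Dock2, Was, Arpc1b, Hcls1, Lcp1, Nckap1l and Aif1), with earlier results of these data known. Every probe set that the platform annotation gives to 1 of them alone was taken, which came to 17 of 45037 probe sets. Of the 10 genes, 9 had a probe set of their own, out of 18193 genes on the array. Both probe sets of Arpc1b, which encodes the subunit of the Arp2/3 complex enriched in leukocytes, are annotated to another gene as well, so that no value is given for it. Male mice provided RNA of 2 regions, the optic nerve and the optic tract, and it was measured on 1 array for the CD47 null genotype (12 to 15 weeks of age) and 1 array for wild-type (13 to 15 weeks). Each array carried RNA pooled from several animals, 4 CD47 KO and 5 WT mice by the description of the series and 5 CD47 KO and 4 WT mice by the labelling protocol. The CD47 KO mice carried the null allele in every tissue, so that the comparison is of whole white matter in which no cell could make CD47, a cell surface protein and ligand of SIRPα, a receptor that restrains microglia. There was no replicate array, no difference could be tested, and all values below describe these 2 pools.

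Engulfment is driven by branched actin. A receptor on the phagocyte activates tyrosine kinases, these act on exchange factors that load Rac with GTP, Rac opens the WAVE complex, and the WAVE complex and its relative WASP switch on the Arp2/3 complex, which starts new filaments that push the membrane around the target. Leukocytes, to which microglia belong, use a set of components of their own at most of these steps (Rac2, Vav1, Dock2, Nckap1l, Was, Arpc1b and Hcls1), while other cells use close relatives. In the brain these leukocyte forms are known mostly from microglia, and Iba1, the product of Aif1, is the usual marker for staining them.

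The targeted gene, Cd47, had a signal of 1346 in CD47 KO and 3928 in WT by its brightest probe set, and by the 3 probe sets above a floor of 106.4 (the median of all signals) on both arrays the CD47 KO signal was 34.3% to 39.5% of that in WT. Where these probe sets lie relative to the disrupted part of the gene was not examined. Both arrays had the same trimmed mean signal. As a measure of RNA quality, the 3′ control probe set divided by the 5′ one gave 1.13 in CD47 KO and 1.05 in WT for Gapdh, and 2.19 in CD47 KO and 2.42 in WT for β-actin.

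All 9 leukocyte actin regulators with a probe set of their own were brighter on the CD47 KO array. The 8 above the floor on both arrays were higher by 1.16-fold (Vav1) to 2.0002-fold (Nckap1l), and Hcls1, under the floor in WT, by at least 1.935-fold. On the log2 scale the ratio of CD47 KO to WT had a median of 0.76 over these genes, against -0.02 over all 12473 genes measured. Nckap1l was over 2-fold higher, where 1.21% of all genes measured were, and it stood just over that size, with Aif1 at 1.94-fold just under it while the bound of Hcls1 does not say on which side that gene lay. At 1.5-fold, a size chosen after the values were seen, 7 of the 9 were higher, with Coro1a at 1.54-fold the last of them and Was at 1.47-fold just under, where 4.02% of all genes measured were higher. None was over 1.5-fold lower, where 4.68% of all genes were, and 9 of 9 had a log2 ratio above 0, where 46.8% of all genes did. Since the members were chosen with earlier results of these data known, these shares are not those of an unselected set. A gene counted as measured when its signal was above the floor on at least 1 array, and signals under this floor were set to it before the ratio. Hcls1 was measured only through the CD47 KO array and therefore could not have had a ratio below 0. In RNA of whole tissue, more leukocytes and more RNA of these genes per leukocyte cannot be told apart.

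**Figure D1:**
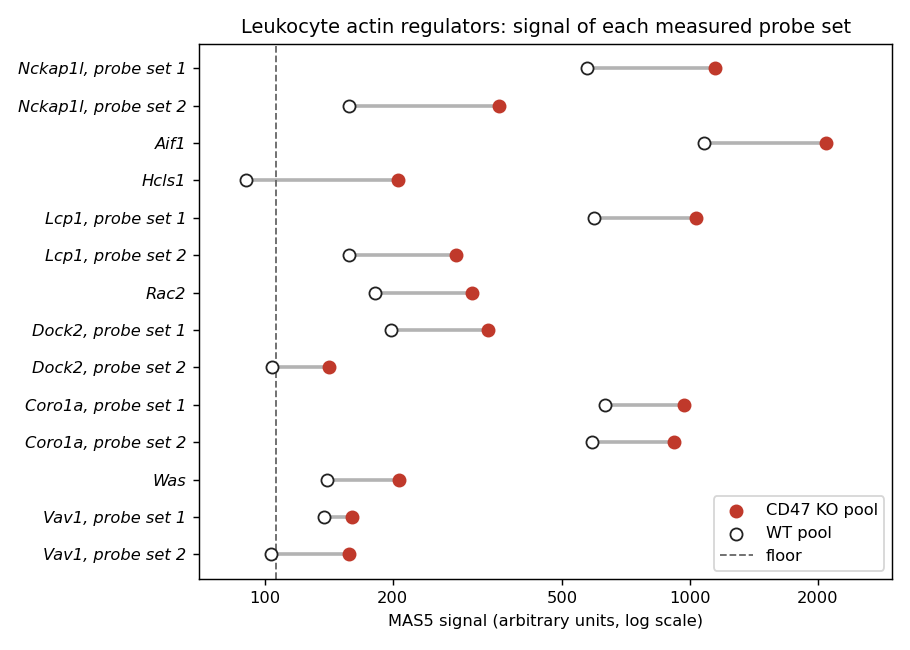
MAS5 signal (horizontal, arbitrary units, log scale) of the 14 measured probe sets of the 9 leukocyte actin regulators, with the CD47 KO pool as filled red circles, the WT pool as open circles and the floor of 106.4 as a dashed line; there is 1 array per genotype and no error bar. The red circle lies to the right of the open one in each of the 14 rows, and 3 open circles lie just under the floor. Those 3 probe sets were measured only through the CD47 KO array, so that their order was fixed in advance. Probe sets under the floor on both arrays are not drawn.

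The GTPase Rac2, the form of Rac made in blood-lineage cells and also a part of their NADPH oxidase, had a signal of 308 in CD47 KO and 181 in WT (log2 ratio 0.76). Its other probe set was under the floor on both arrays (20.3 in CD47 KO and 38.1 in WT) and gives no ratio. Dock2, an exchange factor that activates Rac in migrating and engulfing leukocytes, had a signal of 336 in CD47 KO and 198 in WT (log2 ratio 0.76). A dimmer probe set of Dock2 had 141 in CD47 KO and 103.7 in WT, which is under the floor, so that it was at least 1.33-fold higher, and a further one was under the floor on both arrays. Rac2 and Dock2 thus stood at nearly the same ratio, 1.70-fold higher.

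Vav1, an exchange factor for Rac that tyrosine kinases switch on below Fc receptors and integrins, had the smallest difference of the 9. Its brighter probe set had 160 in CD47 KO and 138 in WT (log2 ratio 0.22), and its other had 158 in CD47 KO and 103.4 in WT, which is under the floor (at least 1.49-fold higher). The signals of Vav1 were close to the floor in each case, and of all genes measured 18.1% had a ratio at least as high as that of its brighter probe set.

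Among the components that start new filaments, Nckap1l, also called Hem1, the scaffold subunit of the WAVE complex in leukocytes, had a signal of 1144.5 in CD47 KO and 572 in WT (log2 ratio 1.0001). Its second probe set had 356 in CD47 KO and 158 in WT (log2 ratio 1.17). Both probe sets were above 2-fold, and among the members above the floor on both arrays no other had a ratio as high. Was encodes WASP, the activator of Arp2/3 that responds to Cdc42 and whose loss causes Wiskott-Aldrich syndrome in humans. It had 206 in CD47 KO and 140 in WT (log2 ratio 0.56). Hcls1, the leukocyte relative of cortactin, which binds Arp2/3 and steadies filament branches, had 206 in CD47 KO and 90.5 in WT. With the WT signal under the floor its ratio is a bound, at least 1.935-fold higher. Was and Hcls1 are each measured by 1 probe set, and both were within a factor of 2 of the floor on the CD47 KO array.

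The last 3 members bind actin filaments. Coro1a encodes coronin 1A, a protein of the leukocyte cortex that gathers at forming phagosomes. It had 970 in CD47 KO and 632 in WT by its brightest probe set (log2 ratio 0.62), and 918 in CD47 KO and 588 in WT by the next (log2 ratio 0.64). The remaining probe set was under the floor on both arrays. Lcp1, or L-plastin, bundles filaments in leukocytes. It had 1034.5 in CD47 KO and 595 in WT (log2 ratio 0.80), and 281 in CD47 KO and 158 in WT by its other probe set (log2 ratio 0.84). For these genes the probe sets differed by only 0.02 (Coro1a) and 0.04 (Lcp1) in log2 ratio. Aif1, a calcium-binding protein that links actin filaments and is found in membrane ruffles and phagocytic cups, was measured by 1 probe set, with 2094 in CD47 KO and 1079 in WT (log2 ratio 0.96).

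The sole repeat measurement in these data is that of different probe sets of 1 gene. Among 4740 genes there were 7457 pairs of probe sets above the floor on both arrays. The log2 ratios of a pair differed with an SD of 0.35, and the difference was under 0.71 in 95% of them. Variation among mice or among hybridisations is not part of this spread. Of the 11 probe sets of the members above the floor on both arrays, 9 were over 1.5-fold higher, where 4.11% of all 21142 such probe sets on the arrays were, with a range from 0.22 to 1.17 in log2 ratio. The ratios of 5 genes (Nckap1l, Aif1, Lcp1, Rac2 and Dock2) and the bound of Hcls1 were larger than 0.71, while those of Coro1a, Was and Vav1 were smaller. This size is pooled over all signals above the floor. The SD was 0.39 with a floor at the 40th percentile and 0.30 at the 60th. Rac2 and Dock2, both at 0.76, passed it narrowly with WT signals only 1.70 and 1.86 times the floor. Hcls1, under the floor in WT, could not be in such a pair. Whether 0.71 holds for genes this dim was not examined. The 0.71 belongs to the difference within a pair, and the SD worked out for a single probe set was smaller, 0.25. A ratio under 0.71 is therefore not shown to lie within the disagreement of probe sets. The order of the members is a description.

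Sequences just before the start of the members' genes were searched for the binding site of PU.1, the ETS-family transcription factor of myeloid cells, because most of the members are known as leukocyte genes. RefSeq promoters (assembly GRCm38.p6) were found for 8 of the 10 genes, and Rac2 and Nckap1l were not among them. The letters searched, on either strand of the 250 bases before each start, were GAGGAAGT and its first part GAGGAA, so that every match of the longer motif is also one of the shorter. The longer motif was found before 1 of the 8 genes (Vav1), where 2.79% of 27025 genes with a promoter in the table held it. The shorter was found before 3 of the 8 (Vav1, Dock2 and Aif1), where 25.9% of all genes held it. Of the broadly expressed relatives described below, 16 had a promoter in the table. The shorter motif was found before 4 of these and the longer before 1 (Coro6). The matches of the members are shown from 25 bases before the motif, 5′ to 3′ along the gene, with the motif in capitals (TTCCTC is GAGGAA read on the opposite strand). In Vav1, Aif1 and the nearer match of Dock2 the motif begins 11, 7 and 9 bases before the start, and the stretch ends at the base before it.
Vav1 (chr17:57279064-57279099, + strand): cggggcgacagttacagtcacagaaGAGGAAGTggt
Dock2, near (chr11:34783906-34783939, - strand): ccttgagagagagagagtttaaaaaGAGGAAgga
Dock2, far (chr11:34784039-34784094, - strand): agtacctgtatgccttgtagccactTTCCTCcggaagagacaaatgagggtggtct
Aif1 (chr17:35176053-35176084, - strand): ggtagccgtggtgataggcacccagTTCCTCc
Among the 3 members with a match were the one with the lowest ratio (Vav1) and one near 2-fold (Aif1). A match of letters is not a measured binding site, and no match says only that these letters are not in this window. The gene of PU.1 itself, Spi1, had a signal of 130 in CD47 KO and 123 in WT (log2 ratio 0.08). Its 1 probe set was close to the floor on both arrays, 1.22 and 1.16 times it, so that a change of Spi1 is not settled here.

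The relatives that do the same work in other cells stood near a ratio of 1. Of 21 such genes, 19 were measured, with a median log2 ratio of 0.01 and a range from -0.31 (Pls3) to 0.29 (Cttn). Over 1.5-fold, 0 were higher, where 4.02% of all genes measured were, and 0 were lower, where 4.68% were. With so few genes, these counts of 0 are close to those shares. The signals of the 21 relatives added up to 50136 in WT, against 3625 for the 9 members, and the spread of ratios depends on signal. Rac1, the Rac of most cells, had a signal of 10847 in CD47 KO and 11091 in WT (log2 ratio -0.03), although a dimmer probe set of it had a log2 ratio of 0.38, the highest of the 38 measured probe sets of relatives, with 2434 in CD47 KO and 1866 in WT. Rac3, a form known from neurons, had 370 in CD47 KO and 367 in WT. The 5 genes related to Dock2 and Vav1 that were measured had log2 ratios of -0.01 for Dock1 (Dock180, the exchange factor of apoptotic cell uptake), -0.06 for Dock3, -0.14 for Dock4, 0.00 for Dock5 and -0.16 for Vav2, and Vav3 was under the floor on both arrays.

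The relatives of the other members had like values. Nckap1, which takes the place of Nckap1l in the WAVE complex of other cells, had 9423 in CD47 KO and 8806 in WT (log2 ratio 0.10). Wasl, which encodes N-WASP, had 2474 in CD47 KO and 2582.5 in WT (log2 ratio -0.06), and Cttn, which encodes cortactin, had 8175 in CD47 KO and 6680 in WT (log2 ratio 0.29). Of the plastins, Pls1 was at 0.14 and Pls3 at -0.31 in log2 ratio, and Aif1l, the relative of Aif1, was at 0.09. The coronins stood at 0.06 (Coro1b), 0.16 (Coro1c), -0.14 (Coro2b) and 0.10 (Coro7), Coro2a had a bound of 0.21, and Coro6 was under the floor on both arrays. In the 18 pairs of a member and a relative that were both measured, the log2 ratio of the member was the larger in 18, by 0.38 to 1.11, and in 10 by more than the 0.71 that held 95% of probe set pairs. The pairs share the same 2 arrays, several share a member, and the members were chosen with such results in view, so that these counts were not tested.

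**Figure D2:**
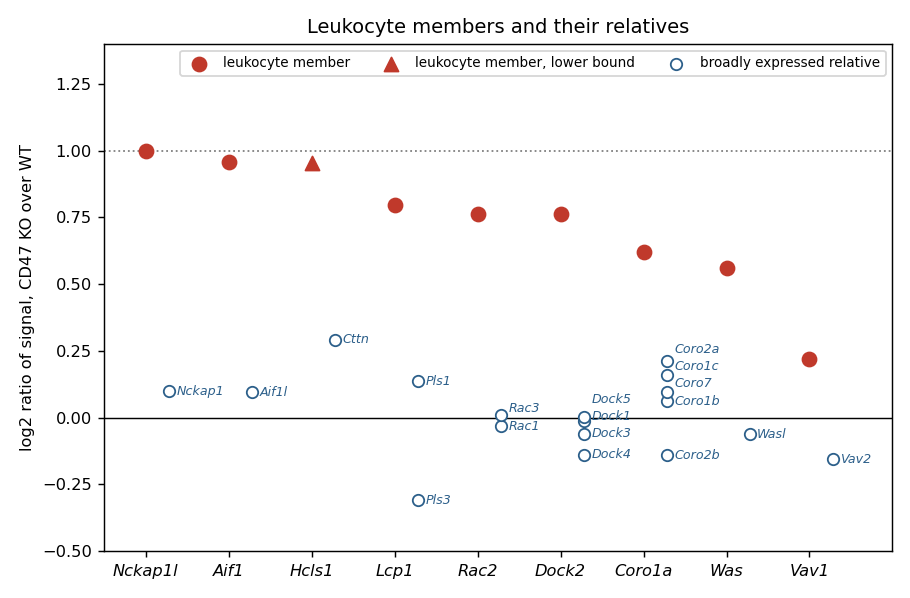
Log2 ratio of signal of CD47 KO over WT (vertical) for each leukocyte actin regulator (red; the triangle is a lower bound) and, beside it, its measured broadly expressed relatives (open blue circles, named; that of Coro2a is a bound too); the dotted line is 2-fold, and each point is 1 gene on 1 array per genotype. The red points run from 1.0001 for Nckap1l to 0.22 for Vav1, and the blue ones lie between -0.31 and 0.29.

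The shared parts of the actin machinery also stood near a ratio of 1. Of the Arp2/3 complex, 6 of 10 subunit genes could be measured, with a median log2 ratio of 0.08. The largest were Arpc5 with 0.25, Arpc1a, which takes the place of Arpc1b in most cells, with 0.21 (5206 in CD47 KO and 4510 in WT) and Arpc4 with 0.13. Actr3, which encodes the subunit Arp3, had 7752 in CD47 KO and 8013 in WT, and its dimmer probe sets had log2 ratios of -0.44 and 0.16. Of the actins themselves, β-actin (Actb) had 30216 in CD47 KO and 31363 in WT, and γ-actin (Actg1) had 23849 in CD47 KO and 23810 in WT.

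In the WAVE complex Nckap1l and the other measured subunit genes had unlike ratios. The subunit gene Cyfip1 had no probe set of its own and could not be compared. Which cells of the tissue gave the signals of each subunit was not tested. Of its 9 measured genes Nckap1l was over 2-fold higher, and the other 8 ran from -0.75 to 0.10 with a median of -0.13. Cyfip2, a subunit abundant in neurons, had 1471 in CD47 KO and 2467 in WT (log2 ratio -0.75, or -0.38 by its other measured probe set), and Wasf1, the neuronal form of WAVE, had 1378 in CD47 KO and 1725 in WT (log2 ratio -0.32). Wasf2, the form of WAVE found in leukocytes among other cells, had 3359 in CD47 KO and 3663.5 in WT (log2 ratio -0.13). Abi3, a subunit of the complex that microglia are known to express, had 133 in CD47 KO and 150 in WT (log2 ratio -0.18), close to the floor. Dimmer probe sets of Brk1, a small subunit of the complex, and of Wasf2 had a log2 ratio of 0.17 and a bound of 0.29.

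Leukocyte genes of actin and adhesion other than the members were mixed. Of 31 genes listed 27 were measured, with a median log2 ratio of 0.20. A signal over 2-fold higher was seen for 4 of them, where 1.21% of all genes were, and one over 2-fold lower for 0, where 0.818% were. Myo1f, a motor that ties membrane to actin in leukocytes, had 403.5 in CD47 KO and 154 in WT (log2 ratio 1.39, with bounds of 1.05 and 0.87 by its other probe sets). Capg, which caps filament ends in macrophages, had 1504 in CD47 KO and 612.5 in WT (log2 ratio 1.30, but a bound of -0.60 by a dim probe set). Arhgap25, which switches Rac off in phagocytes, had 316 in CD47 KO and 152 in WT (log2 ratio 1.05). Fyb, an adaptor between receptors and actin, had 1046 in CD47 KO and 509 in WT (log2 ratio 1.04, and 1.26 by its other probe set). Dock8, an exchange factor for Cdc42 in leukocytes, was 1.91-fold and Fermt3, which activates leukocyte integrins, 1.80-fold higher (log2 ratio 0.43 by a dimmer probe set of Fermt3). The widely expressed Tmsb4x (0.09), Pfn1 (0.20) and Cfl1 (0.08) stood near 0, and so did Arhgdib (0.09). The lowest was Arhgap9 at -0.69, though another probe set of it had 0.41.

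Genes that signal to Vav and Rac were mixed. Of 20 listed genes 17 were measured, with a median log2 ratio of 0.60, with 7 genes over 2-fold higher, where 1.21% of all genes were, and 0 over 2-fold lower, where 0.818% were. The adaptors with activating motifs, Tyrobp (13486 in CD47 KO and 3950 in WT, log2 ratio 1.77) and Fcer1g (5050 in CD47 KO and 1647.5 in WT, log2 ratio 1.62), and the leukocyte integrin chain Itgb2 (1784 in CD47 KO and 641 in WT, log2 ratio 1.48) had the highest ratios. Itgam, the partner chain of Itgb2 in complement receptor 3, had 291 in CD47 KO and 191.5 in WT (log2 ratio 0.60). The adaptor Blnk (log2 ratio 1.47), the kinase Btk (1.41) and the adaptor Lcp2, or SLP-76, a partner of Vav1 (1.01, with a bound of 0.16 by its other probe set), were over 2-fold higher as well. Pik3r5, a subunit of the phosphoinositide kinase PI3Kγ, was at least 2.04-fold higher. Syk, the kinase that acts on Vav1, was under the floor on both arrays in all 4 of its probe sets. The inhibitory phosphatase genes Inpp5d (SHIP1) and Ptpn6 (SHP-1) had log2 ratios of 0.41 and -0.01, and the ubiquitin ligase gene Cblb -0.45. Their probe sets did not give like ratios. A second probe set of Ptpn6 had 728 in CD47 KO and 333.5 in WT (log2 ratio 1.13), one of Inpp5d had a log2 ratio of -0.14, and one of Cblb -0.01.

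**Figure D3:**
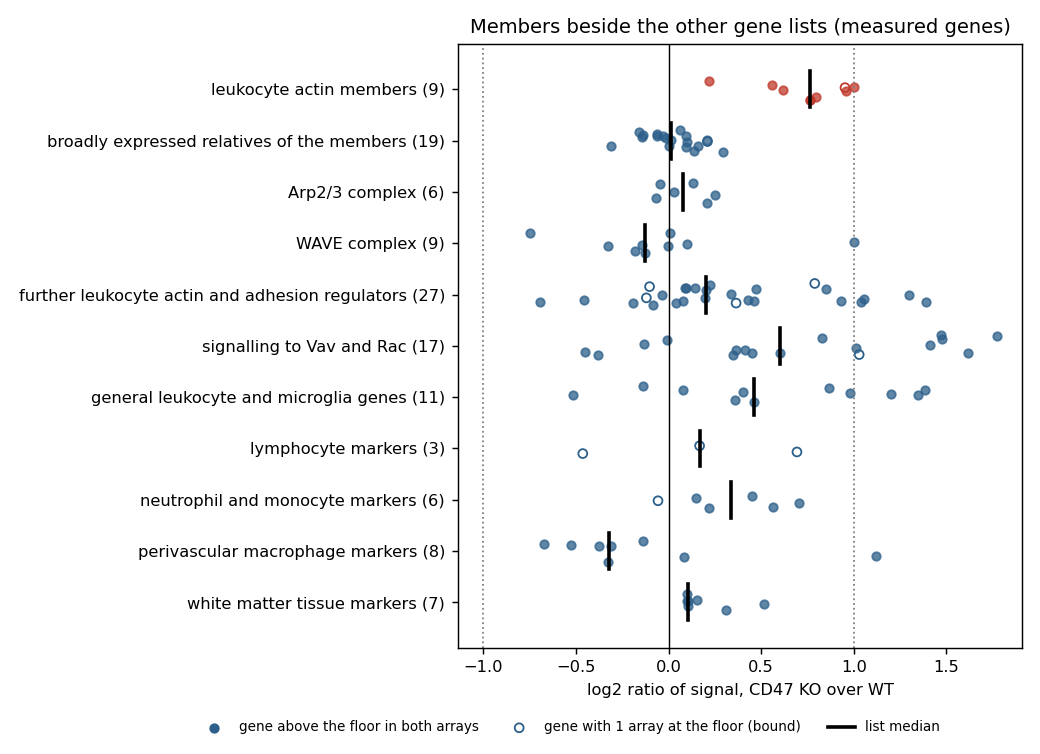
Horizontal axis, log2 of the ratio of CD47 KO signal to WT signal for each measured gene of each list (circles, number of genes in brackets; open circles are bounds), with the list median as a black bar and dotted lines at 2-fold; circles are spread vertically for display only. The leukocyte actin regulators have a median of 0.76, the signalling list 0.60 and the list of leukocyte and microglia genes 0.46, while the relatives and the Arp2/3 complex have medians of 0.01 and 0.08.

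Genes that mark leukocytes and microglia in general had a wide range of ratios. Of 12 such genes 11 were measured, with a median log2 ratio of 0.46 and a range from -0.52 to 1.38. The members lay within this range, but so did most genes measured. Of all genes measured, 93.4% had a ratio at least as high as its lower end and 0.481% at least as high as its upper end. Ptprc, which encodes the leukocyte antigen CD45, had 2092 in CD47 KO and 802 in WT (log2 ratio 1.38). The microglial chemokine receptor gene Cx3cr1 was 2.55-fold higher, and Cd53 and Laptm5 had log2 ratios of 1.20 and 0.98 (-0.24 for the lowest of the dimmer probe sets of Laptm5). Csf1r, the receptor that microglia need to survive, had 0.46 by its brightest probe set, and 0.73 and 0.67 by its others. The first of these values is also the median of the list, and how that median depends on the processing was not examined. P2ry12 had -0.14 and Tmem119 -0.52.

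Markers of other blood cells that could carry the members were dim for lymphocytes and were measured for most genes of the other lists. Of 10 lymphocyte markers with a probe set of their own, 7 were under the floor on both arrays, among them Cd3e, Cd4, Cd79a and Ms4a1, and the other 3 had ratios that are bounds (Nkg7 0.69, Cd3d 0.17 and Cd8a -0.46 in log2). The signals of the 10 added up to 722 in CD47 KO and 524 in WT. Neutrophil and monocyte markers were measured for 6 of 9 genes, with a median log2 ratio of 0.34, none over 2-fold, and signals that added up to 3795 in CD47 KO and 3248 in WT. Among them were Ngp (644 in CD47 KO and 395 in WT), Ltf (log2 ratio 0.56), Camp (0.45) and S100a8 (1450 in CD47 KO and 1309 in WT). Elane, Cxcr2 and the monocyte marker Ccr2 by its brightest probe set were under the floor on both arrays. Other probe sets of Ccr2 had a bound of 0.38 (138 in CD47 KO and 24.6 in WT) and one of -0.08, so that its change is not settled here. Perivascular macrophage markers had a median of -0.32 over 8 genes, of which Ms4a7 was over 2-fold higher (log2 ratio 1.12), Cd163 was at -0.67 and Pf4 at -0.53, and their signals added up to 4169 in CD47 KO and 4874 in WT. The part of these cells in the signals of the members was not tested. Of the listed genes of myelin and astrocytes 7 were measured, with Mbp at 55270 in CD47 KO and 51510 in WT. Their median log2 ratio was 0.11, with the highest for Gfap (0.52), Aqp4 (0.31) and Mobp (0.15). These signals do not tell whether grey matter was in the pools, which was not tested.

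**Figure D4:**
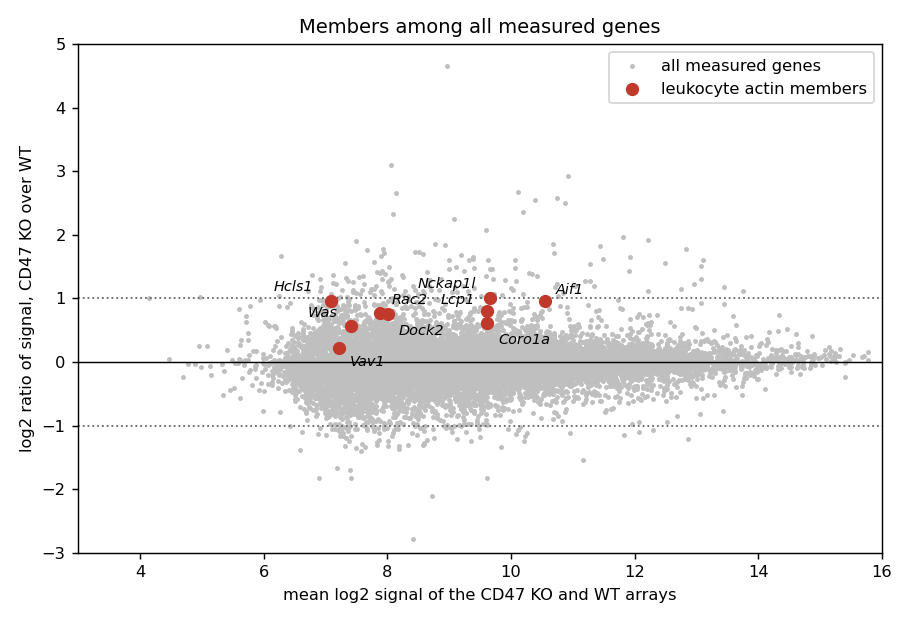
Log2 ratio of signal of CD47 KO over WT (vertical) against the mean log2 signal of both arrays (horizontal) for all 12473 genes measured (grey) and the 9 leukocyte actin regulators (red, named); dotted lines mark 2-fold. The red points lie above 0 at every signal they span, with Vav1 lowest and within the bulk of the grey points.

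The spread of all genes depends on signal, and the members span dim and moderate signals. Of the 8170 genes measured within the members' range of mean signal, 1.36% were over 2-fold higher and 4.64% over 1.5-fold higher, with a median log2 ratio of -0.02. Single genes as far up as the members were not rare on these arrays: 168 genes had a ratio at least as high as Aif1, 297 as Dock2 and 555 as Was.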

How the data were processed

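The authors hybridised biotin-labelled cRNA from 1 pool of total RNA per genotype to Affymetrix mouse genome arrays, scanned them with Command Console and processed them with Expression Console. The submitters' processing notes name MAS5, and the sources used here give no version of it. What was deposited is 1 linear signal intensity for each probe set, scaled by the authors so that each array has the same trimmed mean (2% left out at each end). Arrays have no read depth, and precision is limited by there being so few of them.

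Of 45101 probe sets, 64 are controls. Signals under a floor, the 50th percentile over both arrays, were raised to it before the ratio (CD47 KO divided by WT, in log2), which is therefore a bound where either signal was raised. Such a floor shortens the ratios of dim genes. Of the probe sets used, 34945 are annotated to 1 gene symbol. The 932 with several symbols and the 9160 without one were left out. Symbols were updated by gene identifier for 34741 probe sets. The probe set with the highest mean log2 signal stood for its gene. With 1 array per genotype no test was run.

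The members, the gene lists and the relatives were chosen with earlier results of these data known. All members with every probe set were named, as were all measured relatives, and of each other list the genes over 2-fold and the 3 with the largest absolute log2 ratio. Other genes named (Actr3, Wasf2, Abi3, Dock8, Fermt3, Tmsb4x, Pfn1, Cfl1, Arhgdib, Arhgap9, Syk, Inpp5d, Ptpn6, Cblb, Itgam, Brk1, Actb, Actg1, Spi1, Csf1r, P2ry12, Tmem119, Laptm5, S100a8, Mbp and the markers under the floor) were picked with their values in view. A further gene list is not reported here. The steps from signals to gene ratios at the main setting were tested on simulated data, with changes set in genes well above the floor. Changes in dim genes, the alternatives listed next, the pairs of members and relatives and the promoter search were not tested in this way. The alternatives were a lower floor (40th percentile), a higher one (60th) or none, quantile normalisation, centring on the median, removal of a loess trend, the median over the probe sets of a gene, and leaving out probe sets whose identifiers end in _s_at or _x_at, which can detect several transcripts. Python 3.11.15, numpy 2.4.6, pandas 2.3.3 and statsmodels 0.14.6 were used.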

Additional observations from a re-analysis of the deposited data

How the results depend on the processing

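All 9 members kept a log2 ratio above 0 under each of the 8 alternatives that measured them: of 70 values, 70 were above 0. Of these, 9 belonged to a gene measured only through the CD47 KO array and could not have been below 0 (Hcls1 in 6 settings, Rac2 and Was at the highest floor, and Dock2 without its _s_at probe set), which leaves 61. The 61 are not separate measurements, since every setting reuses the same arrays. A change of floor left bright members such as Coro1a at the same ratio, so that their sign could hardly change. Vav1 was not measured at a floor of the 60th percentile, and Aif1, whose probe set identifier ends in _s_at, was left out with such probe sets. The members' median log2 ratio ran from 0.69 to 0.80, that of the relatives from 0.01 to 0.05, and the count of members over 1.5-fold higher from 5 to 8. The median of the genes that signal to Vav and Rac ran more widely, from 0.41 to 0.83. Without _s_at and _x_at probe sets it was above that of the members, 0.83 against 0.69, so that the order of these 2 lists depends on the processing. The count over 2-fold higher was 2 at a floor of the 40th percentile and 2 with no floor, since Hcls1 then had a log2 ratio of 1.19. At a floor of the 60th percentile Hcls1, Was and Rac2 had WT signals under it and bounds of 0.14, 0.14 and 0.72, and without _s_at and _x_at probe sets Dock2 had a bound of 0.41. The median of the WAVE complex was 0.01 when each gene was the median of its probe sets. The SD of the difference between probe sets was 1.15 with no floor.

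Over all genes, 151 passed 2-fold upwards and 102 downwards. A floor at the 40th percentile made these 212 and 173, one at the 60th percentile 111 and 55, and leaving the floor out 1287 and 1445. No paired analysis was possible because there was 1 array per genotype.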
